A study of Homo sapiens with 18 samples.

Results

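Isolated accessible regions are stretches of open chromatin that stood alone in the genome of T47D cells. A region was taken as isolated when the gap to the nearest other region of the deposited list exceeded 100 kb on both sides, measured edge to edge on the same chromosome, on chromosomes 1 to 22 and X. This rule uses positions alone (build hg19) and no count. It found 863 of 132604 regions, or 0.651%, of which 3 had no other region on one side and 192 regions on chromosomes Y and M could not qualify. The nearest other region lay 134124 bp away at the median (range 100013 to 905190 bp), against 5468 bp over the whole list.

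T47D is an established human breast carcinoma line known to express the progesterone receptor. R5020 (promegestone) is a synthetic progestin that activates this receptor. The cells of all 6 groups were plated in charcoal-stripped serum, which is low in steroid hormones, held in low serum to synchronise them, and then given the vehicle DMSO, 0.1 nM R5020 or 10 nM R5020. They were collected after 6 h or 18 h, with 3 libraries in each group and 18 in all. Nothing in the labels tells separate cultures from repeat preparations of 1 culture, so every p-value reflects variation among these libraries alone, and that variation may be technical.

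Omni-ATAC-seq uses the Tn5 transposase to cut DNA that is not wrapped in nucleosomes and to tag it for sequencing, so the reads in a region follow how open it is. Most open regions of a cell lie near one another around active genes, while long stretches poor in genes hold few. Steroid receptors such as the progesterone receptor bind DNA mainly at distal sites, where binding goes with opening of chromatin, and lowered accessibility elsewhere is also known after hormone. Counts come from whole cultures, so more cells with an open region and a more open region in each cell cannot be told apart.

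Each library had between 8756311 and 39984217 counts in listed regions, and the isolated regions together took 0.321% to 0.450% of them. The unit CPM, counts relative to the TMM-scaled library size, is used for all levels. In a principal component analysis of all regions, replicate 1 of 10 nM at 18 h stood farthest from its group. Vehicle replicate 1 at 6 h had no count in 51 isolated regions, against 0 to 15 in the other libraries. The 5000 strongest regions of the table took 30.7% to 41.7% of the counts of a library, with a mean of 34.1% ± 0.559 with 10 nM and 39.1% ± 2.39 with vehicle at 6 h (SD, n = 3), and 33.6% ± 3.45 and 38.2% ± 2.02 at 18 h. One alternative fit held that share as a covariate, and its part in the results was not tested otherwise.

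Isolated regions were unevenly spread over the chromosomes. Chromosome X held 137 of them, 4.84% of its 2828 regions, and chromosome 13 held 74, or 3.11% of its 2383 regions. Chromosome 4 followed with 86 (1.52%) and chromosome 18 with 36 (1.504%). At the other end, chromosome 19 had 2 among 3868 regions and chromosome 22 had 1 among 2348. These shares describe the list, and no test was made of them. Gaps may include stretches of the reference that hold no mappable sequence, which were not checked here.

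**Figure D1:**
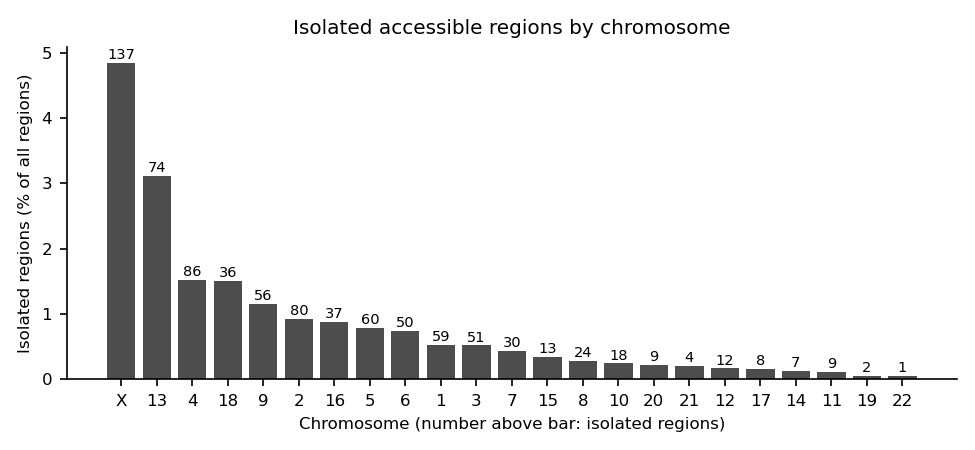
Isolated regions as a percent of all listed regions (vertical axis) on each chromosome, ordered by that percent, with the number of isolated regions above each bar. Chromosome X stands highest at 4.84% with 137 regions and chromosome 13 second at 3.11% with 74.

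Many isolated regions followed one another. In 170 runs of 2 or more, 442 isolated regions followed directly on one another in the list, and 64 of these runs had at least 3. The longest run, of 7 regions, lay on chromosome 9 from 104719961 to 106561211. A run of 6 on chromosome 4, from 45122269 to 46910573, spanned a similar length of 1788304 bp. The most isolated region of all was on chromosome 2 from 22410414 to 22410579, with empty stretches of 905190 and 1025557 bp on its sides. It was weak, at 0.311 CPM on average, and was called in no comparison. Of the 5 most isolated regions, those on chromosome 9 from 39817327 to 39817800 (2.78 CPM), chromosome 7 from 125789119 to 125789394 (0.730 CPM) and chromosome 9 from 46280413 to 46280679 (1.18 CPM) were not called either. The fifth was called: on chromosome X from 29155026 to 29155368, accessibility was 2.63, 1.44 and 1.86 CPM with vehicle at 6 h and 0.609, 0.712 and 0.907 CPM with 10 nM. The groups did not overlap, and the fall of 1.36 on the log2 scale (SE 0.44) had an edgeR adjusted p of 0.0286. At 18 h that region fell by 2.00 (edgeR adjusted p = 0.00491).

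Around the limit of the rule, the isolated regions with the smallest nearest gaps were on chromosome 16 at 59898913 (100013 bp, 1.33 CPM), chromosome 4 at 64905201 (100019 bp, 1.43 CPM) and chromosome 7 at 113484624 (100037 bp, 0.591 CPM). Just outside it were regions on chromosome 1 at 176528772 (99904 bp, 3.32 CPM), chromosome X at 50213513 (99750 bp, 0.967 CPM) and chromosome 12 at 28531481 (99738 bp, 1.46 CPM).

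Isolated regions were narrow and weak. Their median width was 312 bp (138 to 1772 bp), against 386 bp in the whole list. Their median level over all libraries was 1.42 CPM, against 2.32 CPM for all tested regions, and per length it was 4.33 against 6.14 CPM per kb. The median count of a region per library was 25.5 at the median isolated region and 40.0 over the whole list. The spread between libraries of a group had a median SD of 0.433 in log2 CPM against 0.380. After the filter on low counts 852 isolated regions could be tested. The 11 left out had at most 11 to 60 counts in any library and were 140 to 267 bp wide.

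A pair of isolated regions stood far above the rest. On chromosome 1 from 91852782 to 91853148, a region of 366 bp held 753 CPM on average, and its 2058 CPM per kb was the highest of all tested regions. It read 1568, 615 and 644 CPM with vehicle at 6 h, and 639, 485 and 453 CPM with 10 nM. One vehicle library was thus far higher than the others, the groups overlapped, and the difference of -0.84 on the log2 scale (SE 0.34) did not pass (edgeR adjusted p = 0.0753). The other, on chromosome X from 108297348 to 108297831 (483 bp), held 393 CPM and was again highest in vehicle replicate 1 at 6 h, at 627 CPM against 335 and 339 CPM. In every library this pair took between 21.99% and 40.5% of all counts in isolated regions. Repeats and mappability were not checked at this pair, and whether its levels reflect accessibility was not tested.

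Without that pair, the share of the counts in isolated regions was lower with R5020 than with vehicle at both times in the mean. At 6 h it was 0.264% ± 0.00700 with vehicle, 0.253% ± 0.00162 with 0.1 nM and 0.2497% ± 0.00216 with 10 nM (SD, n = 3). Every treated library at 6 h lay below every vehicle library. At 18 h the shares were 0.259% ± 0.00830, 0.240% ± 0.00578 and 0.244% ± 0.00912, where all 0.1 nM libraries were below vehicle and the 10 nM libraries overlapped it. These shares were not tested.

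Next in level were wide regions on chromosome 2 from 136288073 to 136289668 (79.8 CPM) and on chromosome X from 63424938 to 63426710 (53.6 CPM), the latter the widest isolated region at 1772 bp. Neither was called in any comparison. The next widest were on chromosome 1, from 72748029 to 72749795 (1766 bp), which fell with 10 nM at 18 h from 17.5 ± 1.22 to 10.9 ± 2.86 CPM (SD, n = 3), and from 143743028 to 143744752 (1724 bp), which was called in no comparison. The region on chromosome 4 from 80273501 to 80274748, at 48.0 CPM, varied more between replicates than between groups. With 0.1 nM at 18 h it read 24.4, 48.6 and 131 CPM, and with vehicle at 6 h 16.5, 26.5 and 65.7 CPM. No group was separate from another at this region.

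After 6 h of 10 nM R5020, 96 isolated regions were more accessible than with vehicle and 73 were less accessible, by edgeR's quasi-likelihood test with Benjamini-Hochberg adjustment over all tested regions and a threshold of 0.05. These are 11.3% and 8.57% of the 852 tested, where the same calls over all tested regions came to 16.7% and 8.42%. Gained isolated regions rose by a median of 2.35 on the log2 scale (1.93 over all gained regions) and lost ones fell by 1.58 at the median (1.13 over all lost regions). At least a 4-fold change was seen in 61 of the 96 gains and 20 of the 73 losses. That count was not taken over all tested regions. Isolated regions had fewer counts at the median than the whole list, and the part of this in the sizes of called changes was not tested. Over all 852 isolated regions the median log2 difference was -0.13, against -0.05 over the whole table. With library totals alone as the scale these medians became -0.01 and 0.06, a shift of the whole table. With the covariate fit they became 0.12 and 0.02, and the calls 126 and 68. Without vehicle replicate 2 the gains numbered 61, and without vehicle replicate 3 the balance turned, with 83 gains and 94 losses. Without vehicle replicate 1 the calls were 89 and 54, and the medians -0.04 over isolated regions and -0.05 over the table. These medians were -0.08 and -0.01 without vehicle replicate 2, and -0.15 and 0.01 without vehicle replicate 3.

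Gained isolated regions had been weak in vehicle cells and lost ones strong, as over the whole table. The 96 gained regions were nearly closed in vehicle cells, at a median of 0.414 CPM, and reached 1.90 CPM with 10 nM. The 73 lost regions went from a median of 4.38 CPM to 1.15 CPM. These levels enter the comparison itself and are a description. Width was 319 bp at the median for gains, 543 bp for losses and 298 bp for the 683 isolated regions called in neither direction. Over all tested regions the corresponding widths were 389, 601 and 362 bp. The median vehicle levels of gained and lost regions there were 0.959 and 5.91 CPM. Width itself rose with level: isolated regions below 0.5 CPM on average had a median of 176.5 bp and those at 5 CPM or more 855.5 bp. The part of level in the widths of gains and losses was not tested.

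**Figure D2:**
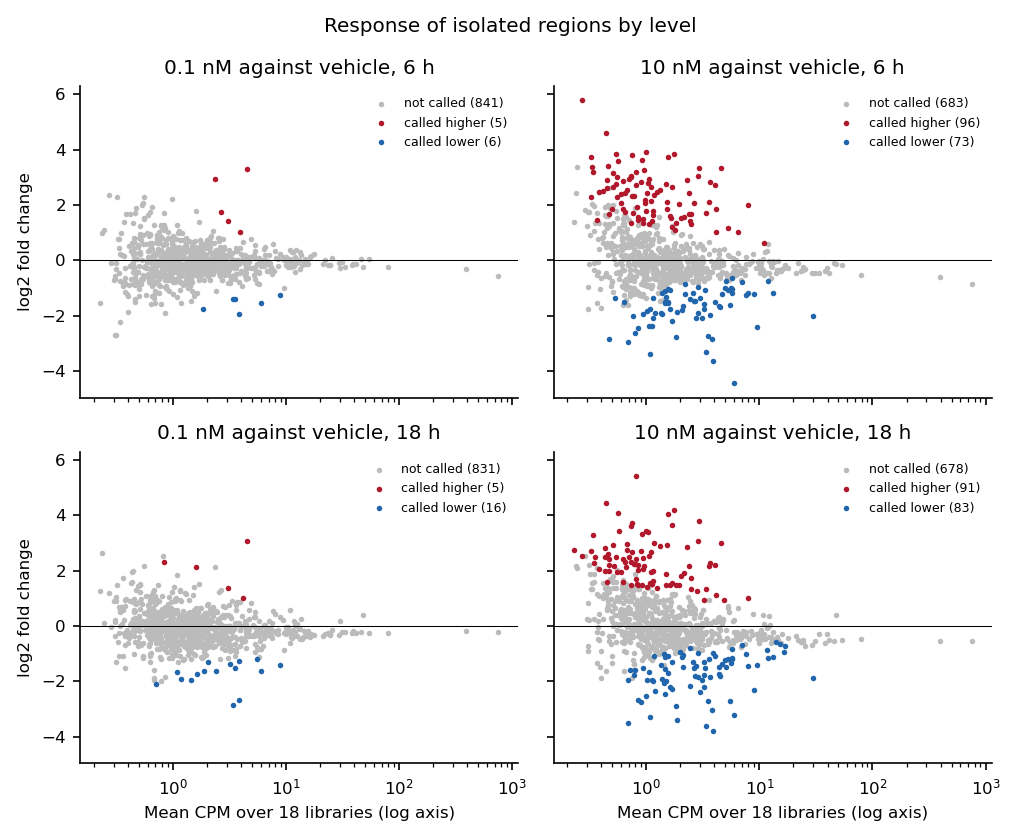
Log2 fold change against vehicle (vertical axis) by mean CPM over 18 libraries (horizontal log axis) for the 852 tested isolated regions, each a point, in the 4 comparisons of a dose with vehicle; red points were called higher and blue points lower by edgeR. Most of the 96 gains with 10 nM at 6 h lie at low mean levels and the 73 losses reach to higher ones.

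Among regions whose mean log2 CPM was 0 or more, the largest gains were mostly regions that 0.1 nM did not change beyond the threshold. On chromosome 4 from 98274221 to 98274613 (392 bp), accessibility was 0.210, 0.368 and 0.324 CPM with vehicle at 6 h, 0.148, 0.119 and 0.110 CPM with 0.1 nM, and 4.497, 4.45 and 3.92 CPM with 10 nM. All 3 libraries of 10 nM were above all others, 13.3-fold over vehicle (log2 3.73, SE 0.44, edgeR adjusted p = 3.42e-06). The rise over 0.1 nM, 5.01 on the log2 scale (SE 0.47, edgeR adjusted p = 4.98e-07), was the largest between the doses among the regions named by the rule.

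A region of 385 bp on chromosome 7 from 110790904 to 110791289 was likewise called with 10 nM and not with 0.1 nM. It read 0.210, 0.295 and 0.324 CPM with vehicle and 0.354, 0.358 and 0.367 CPM with 0.1 nM, then 5.72, 3.34 and 3.40 CPM with 10 nM. The 10 nM libraries stood apart from both other groups, and the rise was 14.3-fold (log2 3.84, SE 0.50, edgeR adjusted p = 1.02e-05). On chromosome 4 from 168861442 to 168861985, 0.315, 0.479 and 1.21 CPM with vehicle became 6.61, 4.90 and 8.63 CPM, a 10.2-fold rise (edgeR adjusted p = 5.62e-05) with no overlap. Its left neighbour 107905 bp away, also isolated, from 168753097 to 168753537, was called higher with 10 nM too, by 2.44 at 6 h and 2.32 at 18 h.

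Weaker in level but as large in change was a region of 219 bp on chromosome X from 128326615 to 128326834, which read 0.105, 0.295 and 0 CPM with vehicle and 2.67, 2.14 and 2.96 CPM with 10 nM at 6 h (log2 3.91, SE 0.77, edgeR adjusted p = 0.000715). Its vehicle values rest on few counts, and with 0.1 nM it read 1.03, 0.298 and 0.953 CPM, where the groups were separate but the test did not pass (edgeR adjusted p = 0.288). On chromosome 2 from 182219335 to 182219599, the 6 h level was 0.169 ± 0.128 CPM with vehicle, 0.135 ± 0.106 CPM with 0.1 nM and 1.89 ± 0.575 CPM with 10 nM (SD, n = 3).

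The largest loss was on chromosome 13 from 57102240 to 57103191 (951 bp). Vehicle libraries at 6 h read 16.4, 13.4 and 13.5 CPM, 0.1 nM libraries 4.08, 4.83 and 5.90 CPM, and 10 nM libraries 0.375, 0.579 and 0.937 CPM. The 3 groups were fully separate and ordered by dose. The fall with 10 nM was 4.45 on the log2 scale (SE 0.31, edgeR adjusted p = 1.88e-08), and that with 0.1 nM was 1.55 (SE 0.26, edgeR adjusted p = 0.00257). Directly between the doses the level fell by 2.90 (SE 0.30, edgeR adjusted p = 1.48e-06).

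A loss of the same form was seen on chromosome 5 from 117474811 to 117475813 (1002 bp). With vehicle at 6 h it read 14.4, 9.28 and 7.04 CPM, with 0.1 nM 3.01, 2.51 and 2.46 CPM, and with 10 nM 0.843, 0.890 and 0.702 CPM. No group overlapped another, and the falls were 3.65 with 10 nM (SE 0.31, edgeR adjusted p = 8.83e-08) and 1.93 with 0.1 nM (SE 0.28, edgeR adjusted p = 0.00059). Its left neighbour, 116575 bp away from 117357609 to 117358236, fell by 3.09 with 10 nM at 6 h, while the right neighbour, 107380 bp away, was not called.

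Chromosome 13 held further losses. From 56227432 to 56227914, a region of 482 bp with nearest gaps of 242209 and 457068 bp read 9.24, 6.30 and 8.58 CPM with vehicle and 0.468, 0.890 and 0.966 CPM with 10 nM, a 10.1-fold fall without overlap (edgeR adjusted p = 1.22e-06). Neither neighbour of it was called. From 87608347 to 87609323, the level went from 7.36 ± 1.61 to 1.03 ± 0.132 CPM, and from 92354189 to 92354501 from 2.04 ± 0.233 to 0.183 ± 0.0780 CPM (SD, n = 3). In all, 13 of the 73 isolated regions tested on chromosome 13 were called lower with 10 nM at 6 h and 11 higher, or 17.8% and 15.1%, where all 2377 tested regions of that chromosome gave 9.93% and 20.7%. On chromosome X the calls were 12 lower and 20 higher among 135, or 8.89% and 14.8%, beside 9.42% and 18.7% of its 2813 tested regions.

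A strong region on chromosome 13 from 51218260 to 51219228 (968 bp) was called lower with 10 nM and not with 0.1 nM. It read 56.5, 42.9 and 35.1 CPM with vehicle at 6 h, 34.3, 34.3 and 42.2 CPM with 0.1 nM, and 9.23, 10.2 and 13.5 CPM with 10 nM. The 0.1 nM and vehicle groups overlapped, and both lay above 10 nM. The fall with 10 nM was 4.07-fold (log2 -2.02, SE 0.22, edgeR adjusted p = 9.99e-07), whereas 0.1 nM gave -0.28 (SE 0.21, edgeR adjusted p = 0.853). Directly between the doses at 6 h it fell by 1.75 (SE 0.21, edgeR adjusted p = 8.01e-06) and at 18 h by 2.08 (SE 0.22, edgeR adjusted p = 6.69e-06).

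**Figure D3:**
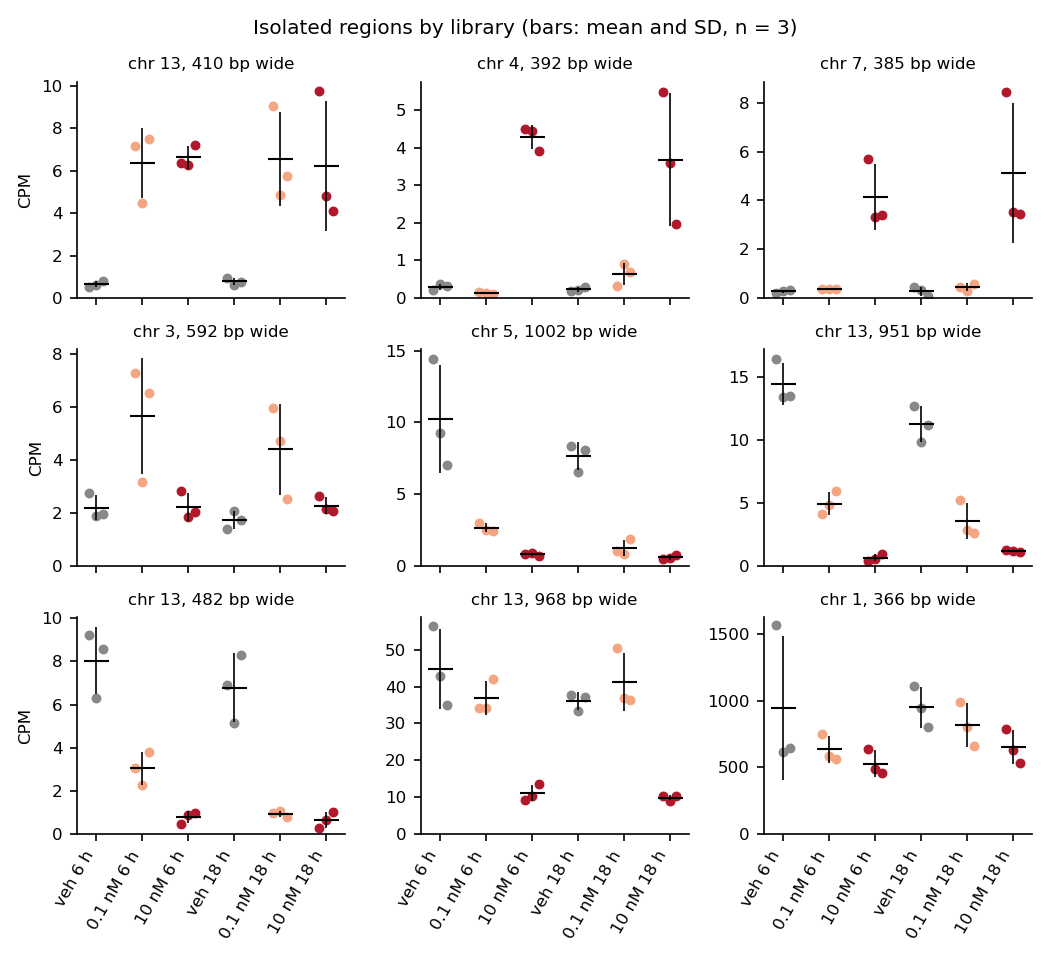
CPM (vertical axis, linear from 0) in each library of the 6 groups for 9 isolated regions named by chromosome and width; points are libraries and bars give the mean and SD of 3. The region of 410 bp on chromosome 13 is as high with 0.1 nM as with 10 nM, those of 392 bp on chromosome 4 and 385 bp on chromosome 7 rise with 10 nM, and those of 951 bp on chromosome 13 and 1002 bp on chromosome 5 fall with dose.

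At 18 h, 10 nM left 91 isolated regions more accessible than vehicle and 83 less accessible. These are 10.7% and 9.74% of those tested, beside 12.8% and 7.56% of all tested regions. The median log2 difference was -0.08 over isolated regions and 0.01 over the whole table, and with library totals alone 0.04 and 0.17. Gains went from a median of 0.374 CPM with vehicle to 1.94 CPM, and losses from 3.80 to 1.04 CPM. Among gains, 64 had also been gained at 6 h, which is 66.7% of the 6 h list and 70.3% of the 18 h list. Among losses, 61 were shared, 83.6% of the 6 h list and 73.5% of the 18 h list, and no isolated region was called in opposite directions. The comparisons at 6 h and 18 h share no library. These overlaps were not counted over all tested regions. Gains numbered 57 without 10 nM replicate 1, 59 without vehicle replicate 1 and 61 without vehicle replicate 2, and losses numbered 55 without vehicle replicate 1. Which direction had more calls turned on single libraries: without 10 nM replicate 1 there were 57 gains and 111 losses (33.9% gains), and without vehicle replicate 2 there were 61 and 66. At an adjusted p under 0.01 the counts were 49 and 52. With the covariate fit the calls were 133 and 78 and the medians 0.06 and -0.05.

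The region on chromosome 7 from 110790904 to 110791289 had the largest 18 h gain among the 42 of 91 whose mean log2 CPM was 0 or more and whose groups did not overlap, with 0.431, 0.309 and 0.0589 CPM with vehicle and 8.46, 3.52 and 3.45 CPM with 10 nM (log2 4.21, SE 0.48, edgeR adjusted p = 3.56e-06). On chromosome 4 from 98274221 to 98274613 the level rose from 0.224 ± 0.0632 to 3.68 ± 1.77 CPM, and from 168861442 to 168861985 from 0.615 ± 0.291 to 8.31 ± 3.71 CPM (SD, n = 3). All of these 10 nM groups lay above their vehicle groups. The count of 42 among the 91 gains was not taken likewise over all tested regions. A region of 368 bp on chromosome 7 from 118212992 to 118213360 rose from 0.240 ± 0.216 to 2.39 ± 1.20 CPM.

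On chromosome 3 from 88768923 to 88769204, a region of 281 bp with gaps of 209933 and 361795 bp, the 18 h libraries read 0.302, 0.463 and 0.354 CPM with vehicle, 0.967, 1.52 and 0.681 CPM with 0.1 nM and 6.20, 3.11 and 4.75 CPM with 10 nM. The 3 groups were separate and ordered by dose. The rise with 10 nM was 12.6-fold (log2 3.65, SE 0.41, edgeR adjusted p = 3.1e-06), while that with 0.1 nM did not pass (log2 1.51, SE 0.44, edgeR adjusted p = 0.0791).

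Among 18 h losses the region on chromosome 5 from 117474811 to 117475813 came first, at 8.36, 6.53 and 8.07 CPM with vehicle and 0.447, 0.572 and 0.746 CPM with 10 nM, 13.7-fold lower (edgeR adjusted p = 2.44e-07). A region on chromosome 9 from 7973258 to 7973682, with no other region for 883674 bp on its right, read 2.72, 3.24 and 3.12 CPM with vehicle and 0.342, 0 and 0.466 CPM with 10 nM (log2 -3.39, SE 0.49, edgeR adjusted p = 4.36e-05). With 0.1 nM at 6 h it read 3.78, 3.22 and 2.27 CPM, within the range of vehicle at 3.99, 2.87 and 2.51 CPM except for 1 library below it. With 0.1 nM at 18 h it read 1.15, 1.17 and 0.486 CPM and was called lower (log2 -1.63, SE 0.42, edgeR adjusted p = 0.0420). It was also called lower with 10 nM at 6 h (log2 -1.88, SE 0.42, edgeR adjusted p = 0.00206).

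With 0.1 nM for 6 h, 5 isolated regions were more accessible than with vehicle and 6 were less accessible, which is 0.587% and 0.704% of those tested. Over all tested regions 0.949% and 0.241% were called. Gains thus made up 45.5% of the calls among isolated regions and 79.7% among all regions, on 11 calls. With size factors by relative log expression (RLE) the isolated regions gave 3 gains and 6 losses, or 33.3%. A fit of the compared groups alone gave 1 and 5, and the covariate fit gave 9 and 9. Without replicate 2 of 0.1 nM the balance turned, with 5 gains and 4 losses (55.6% gains). The share among all regions was not taken under these alternatives. The doses share their vehicle libraries. Gains numbered 1 without replicate 1 or replicate 3 of 0.1 nM, or replicate 1 or 2 of vehicle. Losses numbered 2, 4 and 3 without replicate 1, 2 and 3 of 0.1 nM, and 2 without replicate 1 or 2 of vehicle.

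The largest of these gains was on chromosome 13 from 83639271 to 83639681 (410 bp), the only isolated region called higher in all 4 comparisons with vehicle. Its level was 0.525, 0.626 and 0.810 CPM with vehicle at 6 h, 7.18, 4.47 and 7.48 CPM with 0.1 nM and 6.37, 6.28 and 7.23 CPM with 10 nM. Both doses lay above vehicle and overlapped each other. The rise was 9.71-fold with 0.1 nM (log2 3.28, SE 0.37, edgeR adjusted p = 4.26e-05) and 10.0-fold with 10 nM (log2 3.33, SE 0.37, edgeR adjusted p = 1.85e-06). The doses differed by 0.05 (SE 0.29) at 6 h and by -0.05 (SE 0.30) at 18 h.

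At 18 h the same region read 0.949, 0.617 and 0.766 CPM with vehicle, 9.06, 4.84 and 5.74 CPM with 0.1 nM and 9.75, 4.82 and 4.10 CPM with 10 nM, again with both doses above vehicle. Its right neighbour, 183083 bp away from 83822764 to 83823203 and itself isolated, rose with 10 nM by 2.93 at 6 h and 2.55 at 18 h. With 0.1 nM the neighbour's difference was 0.18 at 6 h (edgeR adjusted p = 0.997) and 0.92 at 18 h (0.705).

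The other 4 gains with 0.1 nM at 6 h were less firm. On chromosome 16 from 52790736 to 52791228, vehicle read 0, 0.405 and 1.05 CPM and 0.1 nM 3.99, 1.13 and 6.16 CPM, separate by little (log2 2.93, SE 0.62, edgeR adjusted p = 0.0179). That call was lost without replicate 1 or 3 of 0.1 nM or replicate 1 or 2 of vehicle, at adjusted p from 0.0593 to 0.165. On chromosome X from 32362732 to 32363437 the rise was from 1.05 ± 0.354 to 3.41 ± 0.976 CPM (SD, n = 3), and its call was lost without the same 4 libraries, at adjusted p from 0.131 to 0.269.

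A pair of these gains was called with 0.1 nM and not with 10 nM, and was lower with 10 nM than with 0.1 nM. On chromosome 3 from 74168166 to 74168758 (592 bp), 6 h libraries read 2.73, 1.88 and 1.94 CPM with vehicle, 7.27, 3.16 and 6.53 CPM with 0.1 nM and 2.81, 1.83 and 2.02 CPM with 10 nM. The 0.1 nM libraries were above all 6 others, which overlapped. The rise with 0.1 nM was 1.41 (SE 0.34, edgeR adjusted p = 0.0419), the difference with 10 nM was 0.04 (SE 0.34, edgeR adjusted p = 0.947), and 10 nM was below 0.1 nM by -1.36 (SE 0.32, edgeR adjusted p = 0.00432). At 18 h the region read 1.38, 2.06 and 1.71 CPM with vehicle, 5.94, 4.70 and 2.53 CPM with 0.1 nM and 2.63, 2.13 and 2.05 CPM with 10 nM. There 0.1 nM was called again (log2 1.38, SE 0.34, edgeR adjusted p = 0.0304), 10 nM was not, and the doses differed by -0.96 (SE 0.33, edgeR adjusted p = 0.0736). The 6 h call was lost without replicate 1 or 3 of 0.1 nM and without any of the 3 vehicle libraries, at adjusted p from 0.0891 to 0.246. The 18 h call was lost without replicate 1 or 2 of 0.1 nM and without any vehicle library, at adjusted p from 0.0691 to 0.190.

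On chromosome 18 from 44939542 to 44940028 (486 bp), the 6 h values were 2.63, 2.58 and 2.27 CPM with vehicle, 4.82, 4.77 and 5.54 CPM with 0.1 nM and 3.42, 3.38 and 2.84 CPM with 10 nM. All 3 groups were separate, with 0.1 nM highest. The rise with 0.1 nM was 2.02-fold (log2 1.02, SE 0.24, edgeR adjusted p = 0.0367) and that with 10 nM was 0.36 on the log2 scale (SE 0.24, edgeR adjusted p = 0.296). Between the doses the difference was -0.65 (SE 0.23, edgeR adjusted p = 0.0461). The call with 0.1 nM was lost on leaving out any 1 of the 6 libraries, at adjusted p from 0.0661 to 0.159.

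The 6 losses with 0.1 nM at 6 h were all called lower with 10 nM at 18 h too, a comparison with other libraries. There they make up 7.23% of the 83 losses, and the same overlap was not counted over all tested regions. These 6 losses were 838 bp wide at the median (482 to 1706 bp), against 803 bp for all 319 regions called lower with 0.1 nM at 6 h. Besides those on chromosomes 13 and 5 given above, they included chromosome 1 from 105496074 to 105496799 (7.91 ± 1.84 CPM to 3.001 ± 1.09 CPM, SD, n = 3), chromosome 4 from 158494012 to 158495718 and chromosome 5 from 84567067 to 84567679 (3.60 ± 1.06 to 1.06 ± 0.321 CPM). The region on chromosome 4 read 21.7, 16.3 and 11.7 CPM with vehicle, 6.32, 7.34 and 6.97 CPM with 0.1 nM and 6.65, 8.86 and 5.97 CPM with 10 nM. Both doses lay below vehicle and overlapped each other at 6 h, with a difference of 0.06 (SE 0.25). At 18 h that region read 5.34 ± 1.63 CPM with 0.1 nM and 2.92 ± 0.451 CPM with 10 nM (SD, n = 3), and the doses differed by -0.91 (SE 0.27, edgeR adjusted p = 0.037).

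Of these 6 losses, those on chromosome 13 from 57102240 and chromosome 5 from 117474811 kept their call without any 1 library. That on chromosome 13 from 56227432 was lost without any 1 of the 6, at adjusted p from 0.0634 to 0.176. Those on chromosome 4 and on chromosome 5 from 84567067 were lost without replicate 1 or 3 of 0.1 nM or replicate 1 or 2 of vehicle, at adjusted p from 0.0529 to 0.0994 and from 0.0769 to 0.109. That on chromosome 1 was lost without replicate 1 or 2 of either group, at adjusted p from 0.121 to 0.218.

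With 0.1 nM for 18 h, 5 isolated regions were more accessible than with vehicle and 16 were less accessible, 0.587% and 1.88% of those tested. The same calls over all regions came to 1.74% and 0.698%. Gains were 23.8% of the 21 calls among isolated regions and 71.4% of the calls among all. With DESeq2, which gave no adjusted p for 85 of them, the isolated regions gave 11 gains and 19 losses (36.7% gains), and the covariate fit gave 16 and 22 (42.1%). The medians of all log2 differences were -0.11 over isolated regions and -0.01 over the table. Gains numbered 2 and 3 without replicate 1 and 2 of 0.1 nM and 2, 1 and 2 without replicate 1, 2 and 3 of vehicle. Losses numbered 8 without replicate 1 or 2 of 0.1 nM or replicate 2 of vehicle, and 6 without replicate 1 of vehicle.

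Of the 16 losses, 12 were also lost with 10 nM at 6 h, an overlap not counted over all tested regions. The shared regions are 12 of 16 in the one list and 16.4% of the 73 in the other. The largest was on chromosome 13 from 56227432 to 56227914, at 6.90, 5.14 and 8.31 CPM with vehicle, 0.967, 1.04 and 0.778 CPM with 0.1 nM and 0.263, 0.654 and 1.03 CPM with 10 nM. Both doses were far below vehicle and overlapped each other. The fall with 0.1 nM was 7.18-fold (log2 -2.84, SE 0.37, edgeR adjusted p = 0.000132). At 6 h the 0.1 nM libraries of this region, at 3.04, 2.27 and 3.78 CPM, lay between vehicle and 10 nM.

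The region on chromosome 5 from 117474811 read 1.04, 0.829 and 1.85 CPM with 0.1 nM at 18 h, 6.41-fold below vehicle (edgeR adjusted p = 4.01e-05). Chromosome 3 from 26156478 to 26156772 went from 2.21 ± 0.240 to 0.554 ± 0.228 CPM and chromosome 4 from 168300603 to 168301041 from 3.10 ± 1.13 to 0.970 ± 0.339 CPM (SD, n = 3). On chromosome 1 from 81312584 to 81313120 the change was from 1.77 ± 0.520 to 0.502 ± 0.324 CPM, and on chromosome 13 from 92354189 to 92354501 from 2.14 ± 0.839 to 0.664 ± 0.108 CPM. The call on chromosome 3 was lost without any library but replicate 3 of vehicle, at adjusted p from 0.0547 to 0.0887, and that on chromosome 4 without replicate 1 or 2 of 0.1 nM or replicate 1 of vehicle, at adjusted p from 0.107 to 0.176. That on chromosome 1 was lost without replicate 1 or 2 of either group, at adjusted p from 0.0934 to 0.208, and that on chromosome 13 without any library but replicate 3 of vehicle, at adjusted p from 0.113 to 0.291.

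Among the 5 gains at 18 h, chromosome 2 from 214711648 to 214711895 (247 bp) read 0.733, 0.617 and 0.707 CPM with vehicle and 3.01, 2.35 and 3.69 CPM with 0.1 nM, without overlap (log2 2.12, SE 0.45, edgeR adjusted p = 0.0122). Without replicate 1 or 2 of vehicle its adjusted p was 0.0657 and 0.0730. On chromosome 3 from 81925972 to 81926436 the level was 2.96 ± 0.631 CPM with vehicle, 5.91 ± 1.24 CPM with 0.1 nM and 3.23 ± 0.759 CPM with 10 nM (SD, n = 3), and 10 nM was below 0.1 nM by -0.85 (SE 0.27, edgeR adjusted p = 0.0433). Its call against vehicle (edgeR adjusted p = 0.0481) was lost without any 1 of the 6 libraries, at adjusted p from 0.0569 to 0.244.

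Set directly against 0.1 nM at 6 h, 10 nM left 82 isolated regions higher and 38 lower, or 9.62% and 4.46%, where all regions gave 15.1% and 5.25%. At 18 h the counts were 49 higher and 30 lower, or 5.75% and 3.52%, beside 6.67% and 4.22% of all. Losses at 6 h numbered 25 and 23 without replicate 1 and 3 of 0.1 nM. At 18 h gains numbered 30 without replicate 1 of 0.1 nM and 25 without replicate 1 of 10 nM, and losses 15 without replicate 1 of 0.1 nM. Without replicate 1 of 10 nM the balance turned, with 25 higher and 37 lower. Same-numbered libraries deviated together at 18 h, and a fit blocked on replicate number gave 18 h calls of 70 higher and 47 lower (5.52%).

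Dose differences followed both directions of the response. On chromosome X from 21630309 to 21630556, 6 h levels were 0.143 ± 0.0855 CPM with 0.1 nM and 2.02 ± 0.154 CPM with 10 nM, and on chromosome 16 from 61452319 to 61452586 the 18 h levels were 0.266 ± 0.175 and 3.17 ± 2.04 CPM (SD, n = 3). In the other direction, chromosome 5 from 152292443 to 152292849 read 2.90, 3.18 and 4.08 CPM with 0.1 nM at 18 h and 0.420, 1.06 and 0.932 CPM with 10 nM. The groups did not overlap, and 10 nM was 4.55-fold lower (log2 -2.19, SE 0.36, edgeR adjusted p = 0.000434). On chromosome 18 from 68916987 to 68917473, the levels were 3.09 ± 0.955 and 0.792 ± 0.298 CPM (SD, n = 3).

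Between 6 h and 18 h of vehicle no isolated region was called by edgeR in either direction (0% of all regions), with 23 of 852 at an unadjusted p under 0.05 and 0 called by DESeq2. A change of the 10 nM response from 6 h to 18 h was tested as an interaction. It called 0 isolated regions, beside 0% of all regions higher and 0.00151% lower at 18 h, with 38 isolated regions at an unadjusted p under 0.05. DESeq2, which gave no adjusted p for 486 of the 852, called 1, on chromosome 13 from 82448428 to 82448944, and the covariate fit in edgeR called the same one. That region, singled out after its values were seen, read 6.05 ± 0.375 CPM with vehicle and 6.31 ± 1.10 CPM with 10 nM at 6 h, and 4.92 ± 0.189 and 1.38 ± 0.631 CPM at 18 h (SD, n = 3). Its edgeR adjusted p was 0.167, with DESeq2 it was 0.0131 and with the covariate 0.0275. Without replicate 1 of 10 nM at 18 h, 1 isolated region was called. For 0.1 nM the interaction called 0 by edgeR and 0 by DESeq2, with 22 isolated regions at an unadjusted p under 0.05.

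Over the 4 comparisons of a dose with vehicle, 126 isolated regions were called higher and 96 lower at least once, or 14.8% and 11.3%, beside 19.9% and 11.1% of all tested regions. In none of them were 630 called, 73.9% of those tested, against 69.1% of all tested regions.

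The calls varied with distance to the nearest other region. With 10 nM at 6 h the share of regions called higher was 16.2% where another region lay under 1 kb away, 19.97% from 1 to 5 kb, 15.02% from 5 to 20 kb, 14.8% from 20 to 50 kb and 13.3% from 50 to 100 kb. Among isolated regions it was 11.7% from 100 to 200 kb and 9.09% beyond 200 kb. The share called lower at 6 h moved less, from 6.99% to 9.17%. With 10 nM at 18 h the shares called higher in the first 5 classes were 11.7%, 14.7%, 11.8%, 12.5% and 14.3%. They thus rose from 5 kb to 100 kb, where those at 6 h fell. Among isolated regions at 18 h they were 11.1% from 100 to 200 kb and 8.39% beyond 200 kb. The share called lower at 18 h ranged from 6.43% to 10.3%. Levels also fell with distance, from a median of 2.61 CPM at 1 to 5 kb to 1.36 CPM beyond 200 kb, and their part in these shares was not tested.

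With 0.1 nM at 18 h the share of gains among the calls varied with distance. Gains were 77.3% of the calls where another region lay under 1 kb away, 77.6% from 1 to 5 kb, 69.8% from 5 to 20 kb, 49.8% from 20 to 50 kb and 42.6% from 50 to 100 kb. From 100 to 200 kb they were 5 of 19 calls, and beyond 200 kb 0 of 2. With 0.1 nM at 6 h the shares in the first 5 classes were 84.5%, 86.1%, 76.8%, 64.1% and 43.5%, and among isolated regions gains were 5 of 10 calls from 100 to 200 kb and 0 of 1 beyond. No test of these trends was made, and both 0.1 nM counts among isolated regions are small.

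**Figure D4:**
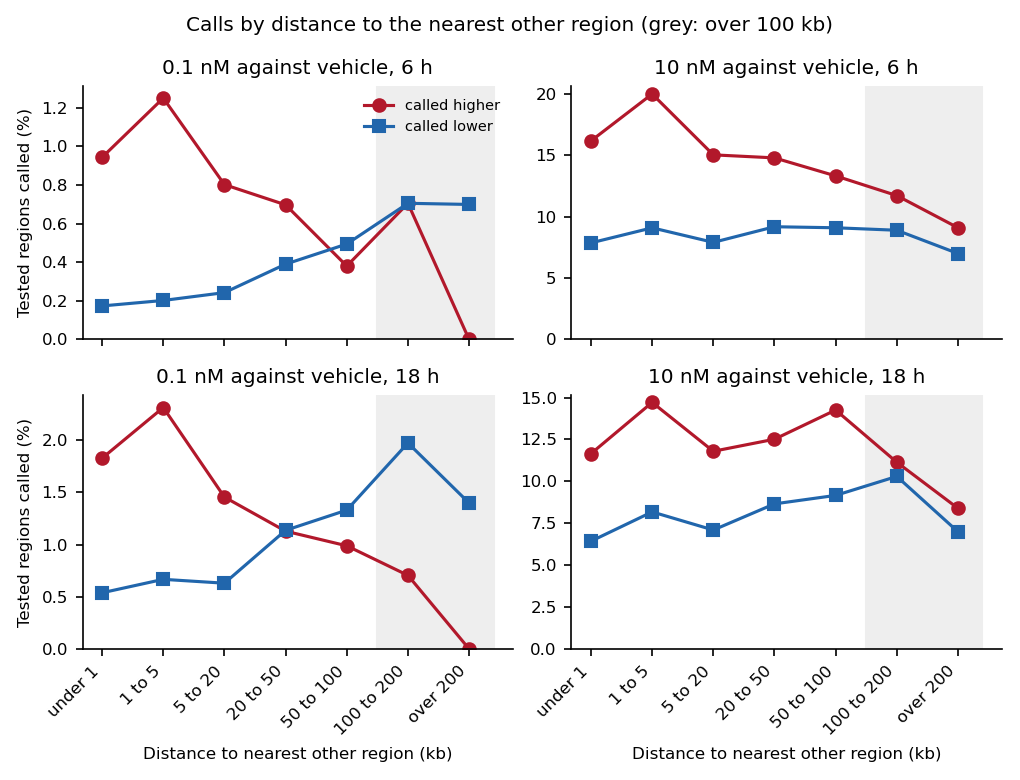
Percent of tested regions called higher (red circles) and lower (blue squares) by edgeR in classes of distance to the nearest other region (horizontal axis, kb), for each dose against vehicle at each time; classes over 100 kb, shaded grey, hold the isolated regions. With 0.1 nM at 18 h the share called higher falls from 2.31% at 1 to 5 kb to 0.705% at 100 to 200 kb, while that called lower rises from 0.667% to 1.97%; the vertical scales differ between panels.

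Within classes of mean level over all 18 libraries, the treated ones included, the share of gains with 10 nM was below that of other regions from 1 CPM up at both times, and not below it under 0.5 CPM. Below 0.5 CPM on average, 18.9% of 74 isolated regions were called higher with 10 nM at 6 h, against 15.2% of all other regions. From 0.5 to 1 CPM the shares were 16.2% and 16.5%. From 1 to 2 CPM they were 8.79% and 19.3%, from 2 to 5 CPM 10.2% and 19.3%, and at 5 CPM or more 3.77% of 106 against 12.4%. Losses from 2 to 5 CPM were called in 14.7% of isolated and 10.6% of other regions, and at 5 CPM or more in 15.1% and 13.0%. At 18 h the shares of gains were 21.6% and 12.6% below 0.5 CPM, 15.8% and 12.8% from 0.5 to 1 CPM, 8.06% and 14.3% from 1 to 2 CPM, and 9.60% and 15.02% from 2 to 5 CPM. The strongest class at 18 h had 1 gain and 21 losses among its 106 isolated regions, 0.943% and 19.8%, against 9.62% and 12.8% of other regions. These are descriptions with no test.

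**Figure D5:**
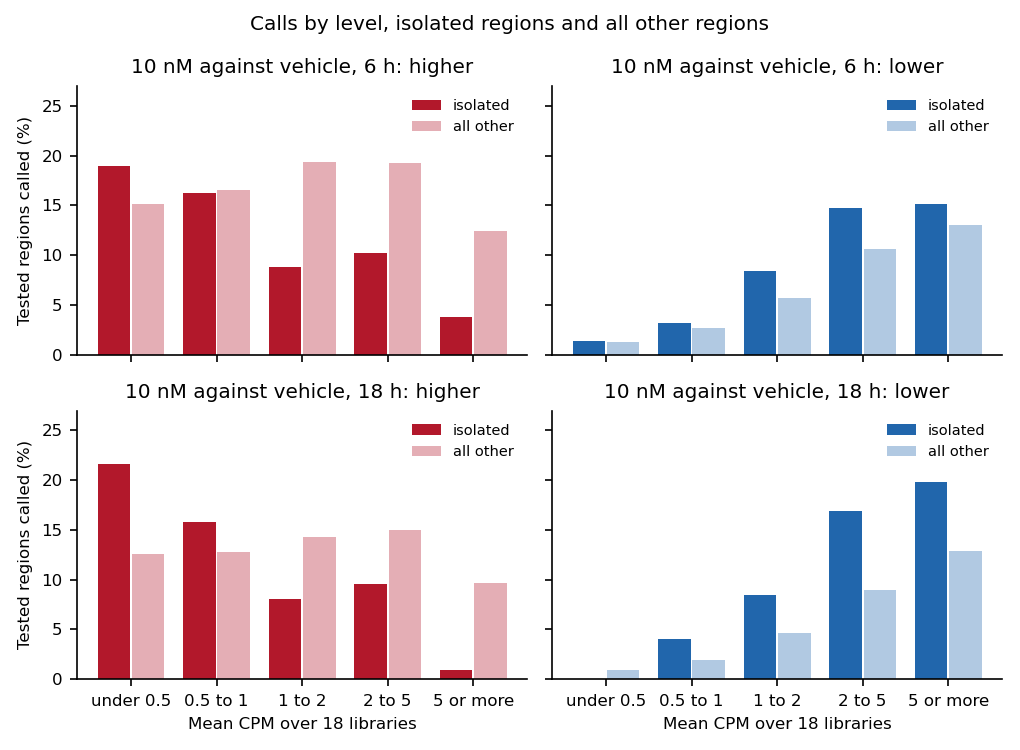
Percent of tested regions called higher (red, left) or lower (blue, right) with 10 nM against vehicle at 6 h (top) and 18 h (bottom), by mean CPM over 18 libraries, for isolated regions (dark bars) and all other regions (light bars). At 5 CPM or more the isolated regions have gains of 3.77% at 6 h and 0.943% at 18 h, against 12.4% and 9.62% elsewhere.

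The regions next to an isolated region, more than 100 kb away, were called as follows with 10 nM at 6 h. A region that adjoined several isolated regions was counted once for each of them. Neighbours that were themselves isolated were included, so adjoining gained regions counted as each other's higher neighbours, and adjoining lost ones likewise. Beside the 96 gained isolated regions, 17.3% of 191 tested neighbours were higher and 8.90% lower. Beside the 73 lost ones, 11.8% of 144 were higher and 15.3% lower, and beside the 683 others 11.4% and 9.90% of 1344. At 18 h the neighbours of gained regions were higher in 18.3% and lower in 10.0%, and those of lost regions in 12.2% and 14.02%. Those of uncalled isolated regions were higher in 11.6% and lower in 9.66% at 18 h. In the whole table, 16.7% were higher and 8.42% lower at 6 h, against 12.8% higher and 7.56% lower at 18 h. Of 272 pairs of isolated regions that were each other's neighbour, 6 were both higher at 6 h, 4 both lower and 5 opposite, and at 18 h the counts were 7, 3 and 7.

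Single neighbourhoods held both directions. Next to the loss on chromosome 1 from 105496074, the isolated left neighbour, 187979 bp away, rose with 10 nM by 1.77 at 6 h (edgeR adjusted p = 0.0281). The right neighbour, 127809 bp away, fell by 3.29 (edgeR adjusted p = 0.000157). Next to the loss on chromosome 5 from 84567067, the right neighbour 181213 bp away rose with 10 nM by 1.99 at 6 h and 2.06 at 18 h. The region on chromosome 18 from 68916987 was named for a lower level with 10 nM than with 0.1 nM. Its left neighbour, 112892 bp away, rose with 10 nM against vehicle by 2.18 at 6 h and 2.94 at 18 h, which is another comparison.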

How the data were processed

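Omni-ATAC-seq counts per region in 18 libraries were used. The authors deposited 1 table of whole-number read counts, with no scaling applied. BWA, MACS2 and the build hg19 appear in the submitters' processing notes; for versions, read filters, the Tn5 shift and the merging of regions, the sources used here say nothing. Coordinates are printed as in the table, whose start base (0 or 1) is not stated. Gene names and sequences were not analysed here, because the annotation at hand is of another build. No correction for DNA copy number was made.

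Tests used edgeR 4.0.16 (R version 4.3.3): filterByExpr defaults (minimum count 10, minimum total 15; 132304 regions kept), TMM scaling and the quasi-likelihood test in 1 fit of all 18 libraries (12 residual degrees of freedom), with adjustment over all tested regions. The SE is the log2 fold change over the square root of F. CPM is TMM-scaled, and log2 CPM has a prior count of 2. Alternatives were DESeq2 1.42.0, other scalings, filters, thresholds, distances, a covariate, a replicate block and left-out libraries. Scripts were tested on simulated data. Depth limits precision: an isolated region had a median of 25.5 counts per library.

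Replicate numbers come from the labels. Same-numbered libraries were taken to deviate together where every correlation was over 0.1. That held for 10 nM against 0.1 nM at 18 h (0.60, 0.19 and 0.45) and for vehicle between times (0.32, 0.12 and 0.45). Replicate 2 alone fell short, at 0.098, when 0.1 nM was compared with vehicle at 18 h. There replicate 1 had 0.45 and replicate 3 had 0.46. Only replicate 2 fell short in the 18 h comparison of 10 nM with vehicle too (0.014, beside 0.36 and 0.35). Every comparison at 6 h had a negative correlation.

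The isolated regions and lists were chosen with earlier results of these data known. Named regions are the 6 largest rises and falls for each dose against vehicle (3 between doses) among called regions whose groups did not overlap and whose mean log2 CPM was 0 or more; those called in 1 direction in all 4 comparisons; the 5 most isolated and 5 strongest; the 3 widest; and 3 on each side of the distance limit.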

Additional observations from a re-analysis of the deposited data

Results flagged for a closer look

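At 4 named isolated regions every treated library moved one way from the vehicle mean at 6 h and every one the other way at 18 h, on the scale of log2(CPM + 0.5). The 46 named isolated regions were searched for this at each dose, and how many would show it by chance was not worked out. The difference was not tested for these regions on that scale, and the edgeR interaction called none of them. On chromosome 13 from 51218260 to 51219228, 0.1 nM was below the vehicle mean at 6 h and above it at 18 h, a change of 0.456 from 6 h to 18 h. At 18 h its 0.1 nM libraries stood only 0.477, 0.0331 and 0.00922 above that mean. On chromosome 4 from 98274221 to 98274613, 0.1 nM was likewise below and then above the vehicle mean, changing by 0.969 from 6 h to 18 h. On chromosome 7 from 125789119 to 125789394, one of the 5 most isolated regions, 10 nM was below and then above the vehicle mean, changing by 1.15 from 6 h to 18 h. On chromosome X from 63424938 to 63426710, the widest isolated region, 0.1 nM was above the vehicle mean at 6 h and below it at 18 h, a change of -0.324.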

How the results depend on the processing

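Of 216 values of the 18 percentages of isolated regions called, under alternatives other than left-out libraries, 187 stayed within 1.5 times. For vehicle between times and for both interactions the percentages were 0, and values that stayed at 0 are among the 187. The values that moved follow. At an adjusted p under 0.01, gains and losses were 7.28% and within 1.5 times for 10 nM at 6 h, 5.75% and 6.10% at 18 h, 0.117% and 0.235% for 0.1 nM at 6 h, 0.117% and 0.704% at 18 h, and between the doses 5.99% and 2.70% at 6 h and 3.29% and 2.00% at 18 h. For gains with 0.1 nM at 6 h, RLE factors gave 0.352%, a fit of the compared groups alone 0.141%, the covariate 1.06% and a 200 kb limit 0%. For gains with 0.1 nM at 18 h, DESeq2 gave 1.29%, the covariate 1.88%, a 50 kb limit 0.890% and a 200 kb limit 0%. Between the doses, a 200 kb limit gave 4.20% gains at 6 h and 2.10% losses at 18 h; at 18 h the groups alone gave 3.48% and 1.74% and the covariate 10.9% gains. The 10 nM interaction gave 0.117% lower (1 of 852) with DESeq2, where 486 had no adjusted p, and with the covariate. The cause was not tested.

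With the replicate number as a block, 0.1 nM at 18 h gave 1.41% gains and 3.29% losses and the doses at 18 h 5.52% losses; no other percentage moved by over 1.5 times, and 10 nM at 18 h gave 116 gains and 118 losses.

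With 1 library left out, the range was 7.11% to 10.5% gains and 5.94% to 10.9% losses for 10 nM at 6 h, 6.67% to 11.7% and 6.403% to 13.0% at 18 h, 0.116% to 0.582% and 0.233% to 0.814% for 0.1 nM at 6 h, 0.116% to 0.815% and 0.698% to 1.63% at 18 h, 6.98% to 10.0% and 2.68% to 4.89% between the doses at 6 h, 2.92% to 6.53% and 1.75% to 4.33% at 18 h, and 0% to 0.117% lower for the 10 nM interaction.

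Of 57 calls of regions named for the largest rises or falls in a comparison, 42 held under every alternative. The other 15, all with 0.1 nM, were lost under at least 1 (highest adjusted p from 0.0730 to 0.291), and 0 reversed. Other calls of named regions were not put through these alternatives.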
